A study of Mus musculus with 6 samples.

Results

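Chromosome 1 of the mouse carries a mixed group of DNA-binding transcription factors and cofactors that lie outside the main factors of retinal cell fate. The group listed here held 31 genes, named by symbol at a time when earlier results of these data were known. Of these, 30 had a row of their own among the 1140 complete rows analysed. Usf1 shared a joined row with its neighbour Tstd1 and was kept apart from the counts.

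The study compared whole retinas of C57BL/6 mouse embryos at stage E15.5 of gestation, with 3 libraries per genotype and 8 retinas pooled in each library. Control embryos had the genotype T2fx/+, with a Tbr2fx allele over a wild-type one, and the submitters call them wild type. The other embryos were T2Isl1/+, with Isl1 knocked in at Tbr2 (also called Eomes). Thus both groups carried 1 modified Tbr2 allele, and in the second group Isl1 stood under the control of a gene used by only a part of the retinal cells, while the RNA came from the whole tissue.

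Transcription factors bind DNA at promoters and enhancers and set how often genes are transcribed, and cofactors join them without always touching DNA themselves. In a developing tissue some of them are used by nearly every cell, such as Creb1, while others are switched on only in particular tissues, such as En1 in the midbrain and hindbrain. The listed genes therefore span ubiquitous regulators, patterning factors of other brain regions, mesenchymal factors and factors of immune cells.

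Each gene had a single value per genotype, in FPKM (fragments mapped to a gene, corrected for transcript length and for the size of the library), into which the authors had combined the libraries. No spread between libraries, interval or replicate check can be given for any gene, and the library depth is unknown. The labels do not tell whether pools shared litters. Genes were called changed where the authors' q-value was under 0.05. Isl1 and Eomes were not analysed here, so neither the knock-in itself nor the level of Tbr2 in either group was checked. Of 8 retinal marker genes listed, 7 had a row and all 7 were tested. The highest was Hes6, a neurogenic bHLH factor, at 380 FPKM in T2fx and 414 FPKM in T2Isl1 retinas. The lowest of the 7 had 1.25 FPKM in T2fx and 0.907 FPKM in T2Isl1 retinas, so not every retinal marker stood at high level.

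None of the listed genes was called changed between the genotypes. Of the 30 genes, 19 were tested by the authors, 0 were called higher and 0 were called lower in T2Isl1 in the authors' deposited table. The background was low as well: 0.155% of the 646 tested rows were called higher and 1.39% lower, so 0 calls among 19 genes is close to the background and does not show that these genes were unaffected. At an unadjusted p under 0.05, 0 of the 19 were higher and 1 was lower in the authors' deposited table, against 1.08% and 2.63% of all tested rows. That gene was Twist2, described further on.

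With expression defined as at least 1 FPKM in the higher group, 16 of the 30 genes were expressed and the other 14 are called silent here. This share of 53.3% lay beside 52.3% of all 1140 rows, and is near the background. The genes nearest the limit were Ikzf2 and Sp140 just inside, with higher values of 1.20 and 1.09 FPKM, and Sox17 and Arid5a just outside, with 0.971 and 0.880 FPKM. All 16 expressed genes were tested. Of the 14 others, 3 were tested and 11 are marked as not tested in the authors' deposited table. En1 and Pax3 were listed at 0 in both groups.

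**Figure D1:**
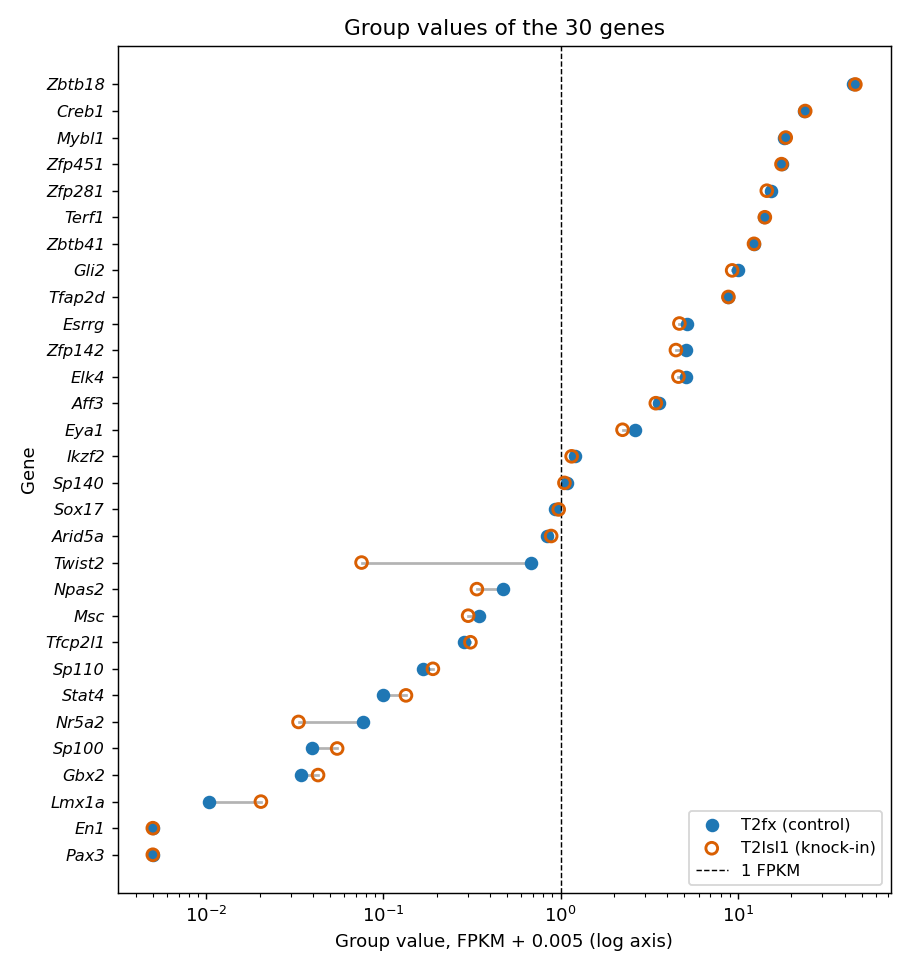
Each line is 1 of the 30 genes, and the horizontal log axis gives the group value as FPKM + 0.005, so that genes listed at 0 can be drawn. Filled points are T2fx, open points T2Isl1, and the dashed line marks 1 FPKM: the points of the 16 genes to the right of the line nearly coincide, while Twist2 shows the widest gap among the tested genes, from 0.677 to 0.0703 FPKM.

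Among the expressed genes the genotypes were close to each other. Their log2 fold changes (T2Isl1 over T2fx) ran from -0.24 for Eya1 to 0.04 for Zbtb18 in the authors' deposited table. The largest of these is a 1.18-fold difference, and 89.8% of the 596 tested rows of at least 1 FPKM were within it. Summed over the 16 genes, the level was 188.6 FPKM in T2fx and 187.2 FPKM in T2Isl1 retinas. Their median log2 fold change was -0.06, beside 0.02 for the 596 rows. Counting only genes of at least 5 FPKM moved that median to -0.0032, and so did leaving out the 4 expressed genes whose table locus is shared with another row.

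**Figure D2:**
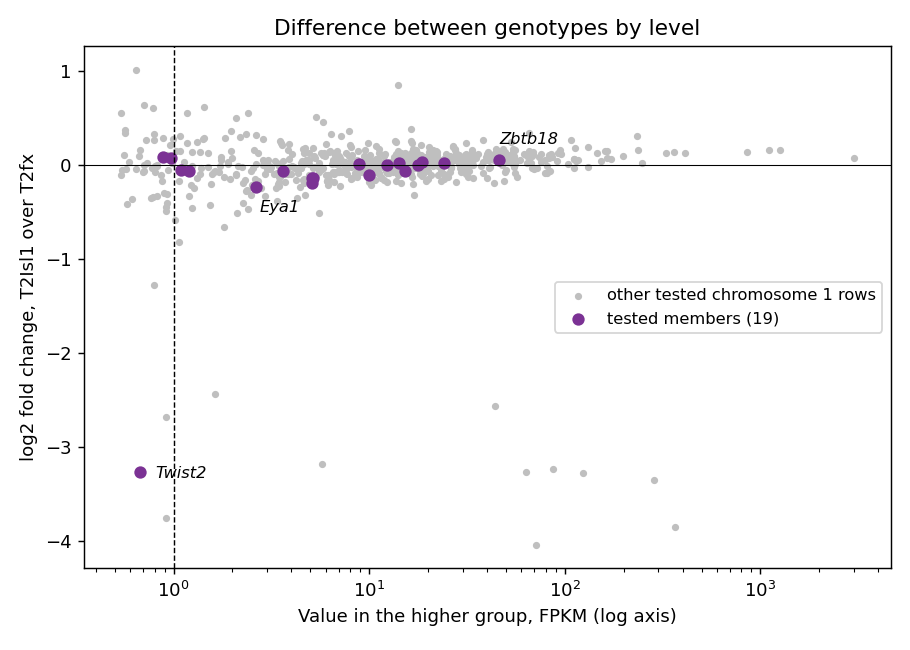
The log2 fold change of T2Isl1 over T2fx is plotted against the value of the higher group in FPKM (log axis), with grey points for tested chromosome 1 rows above 0 in both groups and purple points for the 19 tested genes of the list. The 16 genes to the right of the dashed line at 1 FPKM lie between -0.24 and 0.04, and Twist2 stands at -3.27.

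All 6 zinc finger and BTB factors lay above the limit of 1 FPKM, Ikzf2 only slightly. Zbtb18, a BTB zinc finger repressor needed in brain development (chromosome 1, 177442351 to 177450764, plus strand, mm10), had the highest level of the 30 genes, with 44.7 FPKM in T2fx and 46.1 FPKM in T2Isl1 retinas. It ranked 93 among the 646 tested rows, and in the authors' deposited table its log2 fold change was 0.04 (unadjusted p = 0.693).

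Zfp451, a zinc finger protein of the nucleus, had 17.7 FPKM in T2fx and 17.6 FPKM in T2Isl1 retinas. Zfp281, a zinc finger factor of pluripotent cells, had 15.3 and 14.6 FPKM. Zbtb41 had 12.3 FPKM in both groups, and its unadjusted p of 0.995 was the highest of the tested genes in the authors' deposited table. These 4 genes thus kept the order of their levels in both genotypes.

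Zfp142 had 5.12 FPKM in T2fx and 4.47 FPKM in T2Isl1 retinas, a difference of -12.7%. Its row shares a locus with those of Plcd4, Rqcd1, Usp37 and Vil1, and 18.5% of its exon bases lie in Plcd4 as well, so reads may have been divided between them. Ikzf2, which encodes Helios, an Ikaros-family factor known from T cells and neurons, was the lowest of the group, with 1.20 and 1.15 FPKM.

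Broadly acting activators were expressed in 3 of 5 cases. Creb1, the factor through which cyclic AMP and calcium signals reach promoters (64532645 to 64604548, plus strand), had 23.7 FPKM in T2fx and 24.0 FPKM in T2Isl1 retinas, the second highest level of the 30 genes. Mybl1, a Myb-family activator best known from meiosis in the testis, had 18.2 and 18.6 FPKM, which placed it the third. Elk4, an ETS-domain partner of serum response factor, was lower, with 5.08 and 4.62 FPKM. The locus of Elk4 is shared with the row of Mfsd4.

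The other two activators lay below the limit and were not tested. The clock factor Npas2, a partner of Bmal1, had 0.466 FPKM in T2fx and 0.332 FPKM in T2Isl1 retinas. Another clock gene, Per2, the only other circadian gene with a row among 13 listed, had 1.28 and 1.08 FPKM and was not called (unadjusted p = 0.235 in the authors' deposited table). Tfcp2l1, a grainyhead-related factor of pluripotent and kidney cells, had 0.281 and 0.305 FPKM.

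The joined row of Tstd1 and Usf1 stood above all of the 30 genes. Usf1 is a ubiquitous bHLH-zipper activator that binds E-boxes. The row had 63.7 FPKM in T2fx and 65.6 FPKM in T2Isl1 retinas, and its log2 fold change of 0.04 was not called in the authors' deposited table. What share of that value comes from Usf1 cannot be told from the table.

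Of the telomere, elongation and AT-rich DNA cofactors, 2 of 3 were expressed. Terf1, the shelterin subunit that binds telomere repeats, had 14.1 FPKM in T2fx and 14.2 FPKM in T2Isl1 retinas. Aff3, a scaffold of a super elongation complex, had 3.60 and 3.44 FPKM. Ccnt2, the cyclin that works with the same elongation machinery and was the other gene of that list with a row, had 15.8 and 15.6 FPKM, and neither was called. Arid5a, an ARID-domain protein known for stabilising inflammatory mRNAs, had 0.830 and 0.880 FPKM, just under the limit in both genotypes.

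Factors that pattern the midbrain, hindbrain and other neural regions were split between 2 expressed genes and 3 near 0. Gli2, the main activating transcription factor of Hedgehog signalling (118834132 to 119053619, minus strand), had 9.98 FPKM in T2fx and 9.29 FPKM in T2Isl1 retinas, which is -0.10 on the log2 scale (unadjusted p = 0.374, from the authors' deposited table). The Hedgehog ligand gene Ihh, the only other member of that list with a row, had 0.0624 and 0.0789 FPKM and was not tested.

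Tfap2d, an AP-2 family factor of the midbrain and retina (19103022 to 19166346, plus strand), had 8.81 FPKM in T2fx and 8.84 FPKM in T2Isl1 retinas. By contrast, Tfap2b, its relative among the amacrine and horizontal cell factors, had 16.9 and 13.6 FPKM (unadjusted p = 0.008, q = 0.807, by the authors' deposited table). Neither gene was called, and the difference between these paralogs was not tested. Fewer cells of a type and less RNA per cell cannot be told apart in these whole-tissue values.

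Gbx2, En1 and Lmx1a, homeodomain factors that organise the midbrain-hindbrain region and the dopamine neurons, were practically silent. Gbx2 had 0.0293 FPKM in T2fx and 0.0378 FPKM in T2Isl1 retinas, and 43.5% of its exon bases are shared with D130058E05Rik. Lmx1a had 0.00539 and 0.0154 FPKM, and En1 was at 0 in both. None of these was tested, and no fold change is given at such levels.

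Eya1 and the nuclear receptors had low to moderate levels. Eya1, a protein phosphatase that works as a transcriptional coactivator in eye and ear development (14168954 to 14310235, minus strand), had 2.63 FPKM in T2fx and 2.23 FPKM in T2Isl1 retinas. This difference of -15.1% was the largest among the expressed genes and was not called (unadjusted p = 0.219, q = 0.9997 in the authors' deposited table). No other gene of the list of Eya, Dach and partner genes had a row among those analysed.

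Esrrg, an orphan receptor of energy metabolism (187608791 to 188214885, plus strand), had 5.16 FPKM in T2fx and 4.68 FPKM in T2Isl1 retinas. Nr5a2, a receptor of early embryo, liver and gonad, had 0.0720 and 0.0282 FPKM and was not tested. For comparison, the retinoid receptor gene Rxrg had 11.1 and 12.02 FPKM. Of the 12 listed receptors 4 had rows, 2 were tested and 0 were called.

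Genes of the SP100 nuclear body family and Stat4, which serve interferon and cytokine responses, had low values, with 1 of 4 expressed. Sp140, a chromatin reader of immune cells, had 1.09 FPKM in T2fx and 1.05 FPKM in T2Isl1 retinas. Of the Sp140 exon bases, 26.5% are shared with Gm10552 and Gm17017. Sp110 had 0.162 and 0.185 FPKM, and Sp100 had 0.0347 and 0.0498 FPKM. Stat4, the signal transducer of interleukin-12, had 0.0946 and 0.129 FPKM, and 26.7% of its exon bases are shared with Gm28177.

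Sp140 and Sp110 share a locus in the table and the family has close copies nearby, so the division of reads among its members is uncertain. Of 17 listed interferon and nuclear body genes, 8 had rows, 4 were tested and 0 were called. Aim2, a cytosolic DNA sensor of that list, had 2.95 FPKM in T2fx and 2.34 FPKM in T2Isl1 retinas.

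Mesenchymal, muscle and endothelial factors were all under 1 FPKM, yet they held the widest difference of the tested genes. Twist2, a bHLH factor of mesenchyme and dermis (91801461 to 91848028, plus strand), had 0.677 FPKM in T2fx and 0.0703 FPKM in T2Isl1 retinas. In the authors' deposited table its log2 fold change was -3.27 (unadjusted p = 0.00555, q = 0.623), so Twist2 was not called. With a pseudocount of 1 FPKM the log2 fold change was -0.65.

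Twist2 had the sixth lowest log2 fold change of the 646 tested rows, and 4 of the 5 rows below it were lens crystallins. Of the 50 tested rows under 1 FPKM, 2 had an unadjusted p under 0.05 and 0 were called in the authors' deposited table. Changes of 2-fold or more were found in 10% of these 50 rows, beside 1.51% of the 596 tested rows of at least 1 FPKM. For Twist2, 46.5% of its exon bases overlap the gene Gm29100, and the sources used here do not tell whether counting used strand.

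The marker lists of lens, connective tissue and skeletal muscle had lower summed values in T2Isl1 in the same comparison. The endothelium and blood list summed to 14.4 FPKM in T2fx and 14.3 FPKM in T2Isl1 retinas. Of 7 connective tissue genes listed, 4 had rows including Twist2, 3 were tested and 1 was called lower. That gene was Col3a1, type III collagen, with 5.76 FPKM in T2fx and 0.637 FPKM in T2Isl1 retinas. Col5a2, another fibrillar collagen gene, had 5.56 and 3.88 FPKM and was not called (q = 0.0588 in the authors' deposited table). Without Twist2, the rows of this list summed to 11.4 and 4.56 FPKM, and to 5.62 and 3.92 FPKM without Col3a1 as well, and none was at 0.

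For skeletal muscle, all 7 listed genes had rows, 3 were tested and 1, Chrng, was called lower. The sum was 3.81 FPKM in T2fx and 1.15 FPKM in T2Isl1 retinas, or 2.20 and 0.855 FPKM without Chrng, and Chrnd was at 0 in both. The 7 lens crystallins were all tested and all called lower, from 1038 to 93.6 FPKM in sum. Together with Col3a1 and Chrng they make up all 9 rows called lower among the 646 tested. The lists were chosen with earlier results of these data known, so these calls are no independent support. Of the 2 tested endothelium and blood genes and the 7 tested retina genes 0 were called, which is near the background of 0.155% higher and 1.39% lower rows. That 1.39% holds only the lens, connective tissue and muscle rows just named. The part of these tissues in the Twist2 values was not tested.

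**Figure D3:**
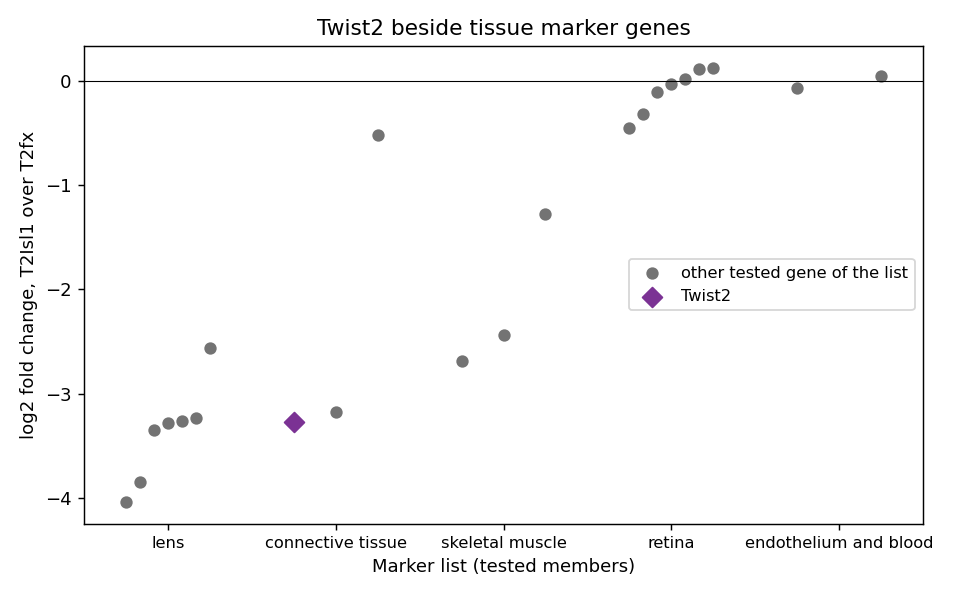
The vertical axis gives the log2 fold change of T2Isl1 over T2fx for the tested genes of 5 marker lists, with genes of a list spread sideways in order of value. The purple diamond is Twist2 at -3.27, a ratio of values under 1 FPKM. In the same list Col3a1 stands at -3.18 and Col5a2 at -0.52, and the crystallins run from -4.03 to -2.56. The tested retina genes and the 2 endothelium and blood genes lie between -0.46 and 0.12.

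For the other factors of this group the table gave 1 tested value, that of Sox17, and its difference from Twist2 was not tested. Msc, encoding musculin, a bHLH repressor of muscle precursors, had 0.342 FPKM in T2fx and 0.296 FPKM in T2Isl1 retinas and was not tested. Of the Msc exon bases, 21.2% are shared with Gm9947. Pax3, a paired-box factor of neural crest and muscle precursors, was at 0 in both. Sox17, a factor of endoderm and arterial endothelium, had 0.922 and 0.971 FPKM, or 0.07 on the log2 scale by the authors' deposited table. Of the Sox17 exon bases, 16.8% are shared with Gm37587. Beside Sox17, the vascular genes Cd34 and Rgs5 had 6.66 and 6.86 FPKM and 7.55 and 7.18 FPKM in control and knock-in.

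The transcripts of the expressed genes were long. Their median longest transcript was 5177 bases, against 3914 bases for the 611 tested rows with an annotated length. Of the 16 expressed genes 10 were below control and 6 above, beside 44.5% and 55.5% of the 596 tested rows of at least 1 FPKM. With tested rows split by length into 5 groups, from the shortest to the longest, the expressed genes below control were 0 of 1, 1 of 2, 2 of 2, 3 of 5 and 4 of 6. Among all tested rows of at least 1 FPKM the share below control was 25.7%, 23.6%, 39.8%, 53.9% and 80.0% in these groups. A gradient with length is thus a feature of all tested rows, and the few listed genes show no clear one of their own. The part of length in these differences was not tested.

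The DNA just before the RefSeq start sites was compared between the expressed and the silent genes. CpG dinucleotides, a cytosine followed by a guanine, are clustered at the promoters of many ubiquitous and developmental genes and are sparse elsewhere. RefSeq promoter sequences (GRCm38.p6, the assembly of mm10) were found for 24 of the 31 genes. Usf1 was one of them and is left out of the counts that follow, which cover 23 genes. RefSeq and GENCODE starts differed for some genes. The windows of Sp140, Lmx1a and Aff3 lay wholly inside the GENCODE gene. That of Aff3, on the minus strand, ended at 38627494, whereas the gene reaches 38664955. Several other windows, such as that of En1, overlapped the GENCODE gene in part. The 5 stretches printed here show the range: the CpG-richest promoter, which belongs to the gene of the highest level with a row of its own, a CpG-poor promoter of an expressed gene, that of Twist2, and a CpG-rich and a CpG-poor promoter of silent genes. Each is the 250 bases before the RefSeq start, 5′ to 3′ on the gene's strand, with CpG in capitals.
Zbtb18: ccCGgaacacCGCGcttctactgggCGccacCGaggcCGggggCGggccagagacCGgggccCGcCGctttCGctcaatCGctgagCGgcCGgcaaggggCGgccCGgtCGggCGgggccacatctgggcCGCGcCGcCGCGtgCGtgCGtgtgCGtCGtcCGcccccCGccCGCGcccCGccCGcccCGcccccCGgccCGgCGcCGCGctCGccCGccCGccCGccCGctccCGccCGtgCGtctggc
Tfap2d: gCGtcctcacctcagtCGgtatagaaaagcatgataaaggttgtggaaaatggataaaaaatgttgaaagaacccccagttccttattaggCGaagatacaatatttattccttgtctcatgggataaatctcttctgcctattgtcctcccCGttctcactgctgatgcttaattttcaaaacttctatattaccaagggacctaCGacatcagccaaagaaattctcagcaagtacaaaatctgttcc
Twist2: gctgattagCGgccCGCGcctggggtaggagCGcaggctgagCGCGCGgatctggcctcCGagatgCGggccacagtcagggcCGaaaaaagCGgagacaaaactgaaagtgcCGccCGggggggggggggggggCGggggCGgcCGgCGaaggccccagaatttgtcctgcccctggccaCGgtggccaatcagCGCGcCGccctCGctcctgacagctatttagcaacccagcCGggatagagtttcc
En1: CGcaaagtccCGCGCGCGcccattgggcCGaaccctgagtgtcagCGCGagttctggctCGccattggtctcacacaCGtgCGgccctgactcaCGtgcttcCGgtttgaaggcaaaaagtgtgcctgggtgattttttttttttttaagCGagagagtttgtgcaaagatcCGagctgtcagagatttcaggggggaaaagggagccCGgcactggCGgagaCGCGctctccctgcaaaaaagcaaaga
Sp100: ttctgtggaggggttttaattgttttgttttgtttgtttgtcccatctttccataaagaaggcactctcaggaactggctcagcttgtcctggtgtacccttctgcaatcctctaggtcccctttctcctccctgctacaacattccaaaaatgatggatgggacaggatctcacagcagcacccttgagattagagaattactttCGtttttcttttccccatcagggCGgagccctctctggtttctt

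Zbtb18 (chr1:177442101-177442350, plus strand) had 47 CpG in this window. Tfap2d (chr1:19102772-19103021, plus strand) had only 5, although it was expressed at 8.81 FPKM in control retinas. Twist2 (chr1:91801211-91801460, plus strand) had 23 CpG. En1 (chr1:120602237-120602486, plus strand) had 19 CpG and was listed at 0 FPKM, whereas Sp100 (chr1:85649738-85649987, plus strand) had 2 CpG and 0.0347 FPKM in control retinas.

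CpG count therefore did not separate the classes. The 12 expressed genes had a median of 20 CpG and a range of 5 to 47, and the 11 silent ones had a median of 13 and a range of 1 to 34. The ranges overlap widely. At least 10 CpG were present in 9 of 12 and 6 of 11, beside 37.8% of all 32851 windows of that length in the RefSeq table, whose median was 6. The silent genes with few CpG were Stat4, Sp100, Sp110, Nr5a2 and Lmx1a, and those with many were Npas2, Twist2, En1, Gbx2, Tfcp2l1 and Arid5a.

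**Figure D4:**
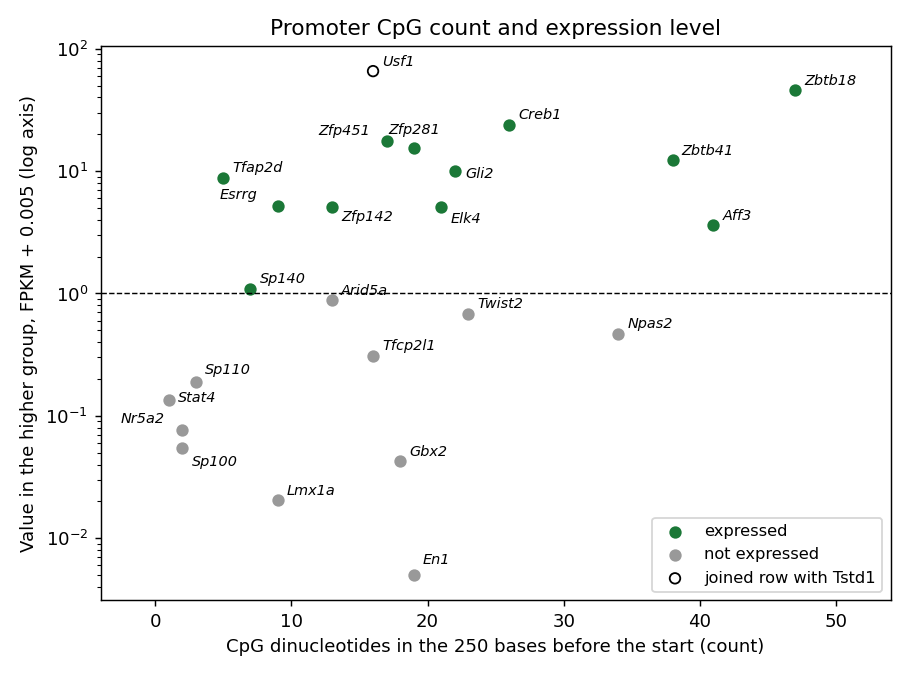
The horizontal axis counts CpG dinucleotides in the 250 bases before the start, and the vertical log axis gives the value of the higher group as FPKM + 0.005, for the 24 genes with a promoter sequence. Green points are expressed and grey points silent genes, and the open point is Usf1 at the value of its joined row: Zbtb18 stands alone at 47 CpG, while Tfap2d with 5 CpG is expressed and En1 with 19 CpG is at 0.

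Short motifs were counted in the same windows on both strands, with overlaps between motifs allowed. The GC box GGGCGG was in 8 of 12 expressed and 7 of 11 silent promoters, beside 32.7% of all windows. The ETS core CCGGAA was in 5 of 12 and 1 of 11, beside 12.03% of all windows. The E-box CACGTG, a site bound by proteins such as Usf1, was in 0 of 12 and in 2 of 11, those of En1 and Gbx2, beside 6.02%. The TATA motif TATAAA was in 1 of 12 and 2 of 11, beside 12.4%. The cyclic AMP response element TGACGTCA was in none of the 23, beside 1.55% of all windows. These are letter matches only, and the differences between the classes were not tested.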

How the data were processed

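Retinal RNA of 6 libraries was sequenced on Illumina instruments. Tools listed, without order, in the submitters' processing notes are TopHat2 2.1.1, Cufflinks 2.1.1 and CASAVA, with the build mm10, and the sources used here do not give the annotation. The deposited table holds 1 value per gene and group, read as FPKM, a unit inferred from the named tool. The authors' log2 fold change has no pseudocount and equalled the ratio of the values to within 1.06e-05. The deposited p-value and q-value are the authors', and rows marked as not tested hold 1. The authors' test score, named in the file headers, was not used. Rows were those of chromosome 1, with 1 incomplete row left out, and the highest value of a row not tested was 0.516 FPKM.

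Members were matched by exact symbol. The members and lists were chosen with earlier results of these data known. No new test was made, since values per library were not used here. By the rule for named genes, all members were described, and of each list the 4 tested rows of highest level and any called one could be named; Ihh and Chrnd were named after their values were seen. Transcript lengths and exon overlaps came from GENCODE M21 (GRCm38), and promoters from RefSeq, taking the start nearest the GENCODE one. Python 3.11.15 and pandas 2.3.3 were used. Counting and adjustment steps were tested on simulated data. Alternatives covered the FPKM floor, the q and p thresholds, pseudocounts, centring and joined or shared rows. Values of some genes of the fixed lists are not reported here.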

Additional observations from a re-analysis of the deposited data

How the results depend on the processing

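No alternative changed the count of called genes on the list except the unadjusted p under 0.05, where 1 gene, Twist2, was lower. The stricter q-value, the FPKM floor, a minimum fold and names left out can only remove calls, so they could not have changed a count of 0. When the authors' p-values were adjusted by Benjamini-Hochberg over only the rows analysed, Twist2 had 0.239. For all tested rows the counts at a q-value under 0.05 were 1 higher and 9 lower. They were 0 and 0 at a q-value under 0.01, and 7 and 17 at the unadjusted p. At a q-value under 0.1, and also with the adjustment over only the rows analysed, they were 1 and 10. Col5a2, with an authors' q-value of 0.0588, was among the 10 at a q-value under 0.1. The smallest of the authors' q-values was 0.0116, so no row could be counted at 0.01 and that setting tells nothing about the calls. The number of expressed genes ran from 12 (floor of 5 FPKM, or rows that share a locus left out) to 19 (floor of 0.5 FPKM), and was 17 with the joined Usf1 row. The median log2 fold change of expressed genes stayed below 0, from -0.074 (centred on all tested rows) to -0.0032. Centring turned Zbtb41 to -0.013 and Tfap2d to -0.0079, both near 0. The settings with the joined row counted and with shared loci left out were chosen after seeing the data. Low levels limit the silent genes, and the depth is unknown. No paired analysis was possible because the values used here are 1 per group, combined by the authors over its libraries, although the labels number the libraries.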
